A study of Mus musculus with 6 samples.

Results

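The genes described here are 33 genes that serve protein folding, secretion and stress in the endoplasmic reticulum (ER), out of 27376 gene names on the array. They were chosen by name, and each was read by its brightest probe, the one with the highest mean over all 6 arrays. For 31 of them the name alone decided. Fkbp11 and Pou2af1 were picked for their values in the comparison of cKO with control, so they are described without a test. The arrays measured RNA of induced regulatory T (iTreg) cells, that is naive CD4+ T cells turned into Foxp3-expressing cells in culture, from 3 mice with floxed miR-31 and CD4-Cre (miR-31 fl/fl CD4Cre, called cKO) and 3 control mice, all 6 weeks old and on the C57BL/6 background. In the cKO mice, Cre driven by the Cd4 promoter removes the microRNA miR-31 in T cells, and per the study's methods the control mice are miR-31 fl/fl without Cre. Naive cells negative for CD25 and for a Foxp3 GFP reporter, with high CD62L, were sorted from each spleen and cultured for 4 days. The labels give TGF-β1 at 5 ng ml−1, IL-2 at 40 ng ml−1, soluble anti-CD28 at 2 μg ml−1 and anti-CD3 on the plate at 5 μg ml−1, while the study's methods give another IL-2 concentration. All 6 cultures received this treatment, and each mouse was read on 1 one-colour array. The array annotation names no probe for miR-31, so its deletion was not checked here.

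Proteins bound for the membrane or for secretion enter the ER through the Sec61 channel, lose their signal peptide, and fold with the help of chaperones and of enzymes that form disulphide bonds or turn proline bonds. When unfolded protein accumulates, the sensors IRE1α, ATF6 and PERK start the unfolded protein response, in which spliced XBP1 and cleaved ATF6 activate chaperone genes and CHOP (Ddit3) rises with prolonged stress. Plasma cells are known for a large ER built with XBP1. Activated T cells also enlarge their secretory apparatus, as they release cytokines.

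Levels are given as log2 of the processed signal minus the 75th percentile of the same array, so that 0 is the level of a bright probe and each unit is a doubling. Levels of different probes are not comparable with each other, since each probe binds with its own strength. Signal stood well above background for 49.3% to 57.7% of spots per array. The cKO array 3 stood apart: across the 22281 tested probes it correlated with the other cKO arrays at 0.974 and 0.979, beside 0.985 between those arrays. Control arrays correlated with each other at 0.984 to 0.989. With the control arrays, cKO array 3 had 0.948 to 0.963 and the other cKO arrays had 0.967 to 0.984. A fit with array weights gave cKO array 3 a weight of 0.17, the lowest. Values of most genes described one by one are therefore given with and without it. One slide held all 3 cKO arrays together with control array 1, and the remaining control arrays were on a second slide. A change of direction within the first slide is therefore stated beside the gene. In bulk RNA, fewer cells of a type and less RNA per cell cannot be told apart, and with 3 arrays per genotype the intervals are wide.

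All 33 genes were read well above background on all 6 arrays. Among the 31 genes chosen by name, 0 passed limma's adjusted p of 0.05, beside 0.242% of all tested probes, and the lowest adjusted p was 0.17. At an unadjusted p under 0.05, 1 of the 31 was higher in cKO (P4hb), beside 11.5% of all tested probes, and 1 was lower (Pdia6), beside 11.4%. The log2 fold changes ran from −0.54 to 0.49, with a median of −0.12, beside a median of −0.04 over all tested probes. Below 0 lay 23 of the 31, beside 55.2% of all tested probes. Without cKO array 3 the median of the 31 was 0.01 and 13 of the 31 lay below 0, beside 54.8% of all tested probes. All 3 cKO arrays lay below all control arrays for 9 of the 31 genes, beside 20.7% of all tested probes, and above them for 3, beside 15.9%. The lowest of the 6 levels was that of cKO array 3 for 22 of the 31 genes, beside 35.2% of all tested probes, and the highest for 3 (Sec61g, Edem1 and Ddit3), beside 28.1%. Against control array 1 alone, on the same slide, the median of the 31 was −0.12, and 2 genes with values near 0 changed sign, Dnajb9 to −0.04 and Ssr4 to 0.02.

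**Figure D1:**
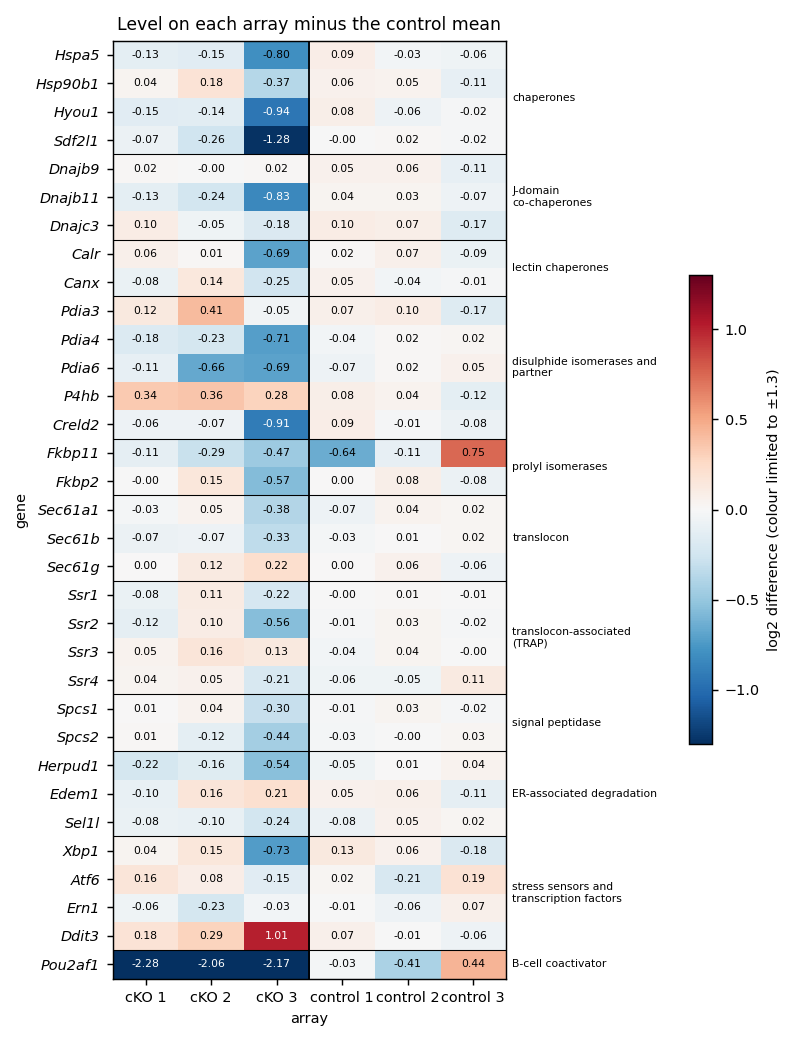
Level of each of the 33 genes (rows, grouped by role) on each of the 6 arrays (columns), as the log2 difference from the mean of the 3 control arrays; the number is printed in each cell and the colour is limited to ±1.3. The blue column of cKO array 3 runs through most chaperones, Xbp1 and Creld2, Ddit3 is red on the same array, and Pou2af1 is low on all 3 cKO arrays.

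Of the 9 chaperones, co-chaperones and lectins, 0 passed even an unadjusted p of 0.05. Their median log2 fold change was −0.21 and 8 of the 9 lay below 0, while without cKO array 3 the median was 0.01 and 4 lay below 0. For 8 of them cKO array 3 held the lowest level, the exception being Dnajb9. Hspa5 encodes BiP, the Hsp70 chaperone of the ER that also holds the stress sensors inactive. It stood at 5.20, 5.18 and 4.53 on cKO arrays 1 to 3 and at 5.41, 5.30 and 5.27 on control arrays 1 to 3. The groups did not overlap, but cKO arrays 1 and 2 lay close beneath the controls and cKO array 3 far below. The log2 fold change was −0.36 (standard error 0.20, adjusted p = 0.31 from limma) and −0.14 without cKO array 3.

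Sdf2l1, a partner of BiP's co-chaperones, had the largest negative value of the 31 genes. It stood at 2.18, 1.99 and 0.97 in cKO and at 2.25, 2.27 and 2.23 in control cells (log2 fold change −0.54, standard error 0.32, adjusted p = 0.33, and −0.17 without cKO array 3). Hyou1, a large chaperone that exchanges the nucleotide of BiP, stood at 1.92, 1.93 and 1.12 in cKO and at 2.14, 2.00 and 2.05 in control cells (log2 fold change −0.41, standard error 0.23, adjusted p = 0.32, and −0.14 without cKO array 3). The control levels of both genes were tight and the cKO spread came from a single array. Hsp90b1, the Hsp90 of the ER, had a log2 fold change of −0.05 (95% interval −0.45 to 0.35), and 0.11 without cKO array 3.

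Among the J-domain co-chaperones, which hand clients to BiP, Dnajb11 stood apart from the others. It had levels of 3.73, 3.61 and 3.02 in cKO and of 3.89, 3.89 and 3.79 in control cells, so that every cKO array lay beneath the controls (log2 fold change −0.40, standard error 0.20, adjusted p = 0.27, and −0.19 without cKO array 3). Dnajb9 and Dnajc3 had log2 fold changes of 0.010 and −0.05, and 0.0078 and 0.020 without cKO array 3, with groups that overlapped. The lectin chaperones calreticulin (Calr) and calnexin (Canx), which bind glycoproteins, had −0.21 and −0.06, and 0.04 and 0.03 without cKO array 3.

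The disulphide isomerases went in different directions. P4hb, the archetypal protein disulphide isomerase, stood at 3.94, 3.96 and 3.88 in cKO and at 3.68, 3.64 and 3.48 in control cells. All cKO arrays were above all controls and cKO array 3 lay with the others. Its log2 fold change was 0.33 (standard error 0.10, unadjusted p = 0.018, adjusted p = 0.17), 0.35 without cKO array 3 and 0.25 against control array 1 on the same slide. Pdia3, the isomerase that works with calreticulin and calnexin, stood at 4.21, 4.50 and 4.04 in cKO and at 4.15, 4.19 and 3.92 in control cells, and the groups overlapped (log2 fold change 0.16, standard error 0.15, adjusted p = 0.52, and 0.27 without cKO array 3).

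Pdia6, another disulphide isomerase, stood at 4.48, 3.93 and 3.90 in cKO and at 4.52, 4.61 and 4.65 in control cells (log2 fold change −0.49, standard error 0.18, unadjusted p = 0.033, adjusted p = 0.19). Without cKO array 3 the value was −0.39, with an unadjusted p of 0.091 from limma. Its 3 dimmer probes had log2 fold changes of −0.36, −0.37 and −0.18, and of −0.18, −0.26 and 0.060 without that array. Pdia4 stood at 0.34, 0.29 and −0.20 in cKO and at 0.48, 0.53 and 0.54 in control cells, with every cKO array beneath the controls (log2 fold change −0.37, standard error 0.16, adjusted p = 0.23, and −0.20 without cKO array 3). Creld2, an ER protein induced with the chaperones that associates with disulphide isomerases, had −0.35 and overlapping groups, and −0.07 without cKO array 3.

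Fkbp2, the other FK506-binding prolyl isomerase of the ER among the 33 genes, stood at 3.88, 4.03 and 3.32 in cKO and at 3.88, 3.96 and 3.81 in control cells. The 2 other cKO arrays lay among the controls and only array 3 was low. The log2 fold change was −0.14 (standard error 0.20, adjusted p = 0.68), its second probe had −0.17, and without cKO array 3 the values were 0.07 and 0.03.

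**Figure D2:**
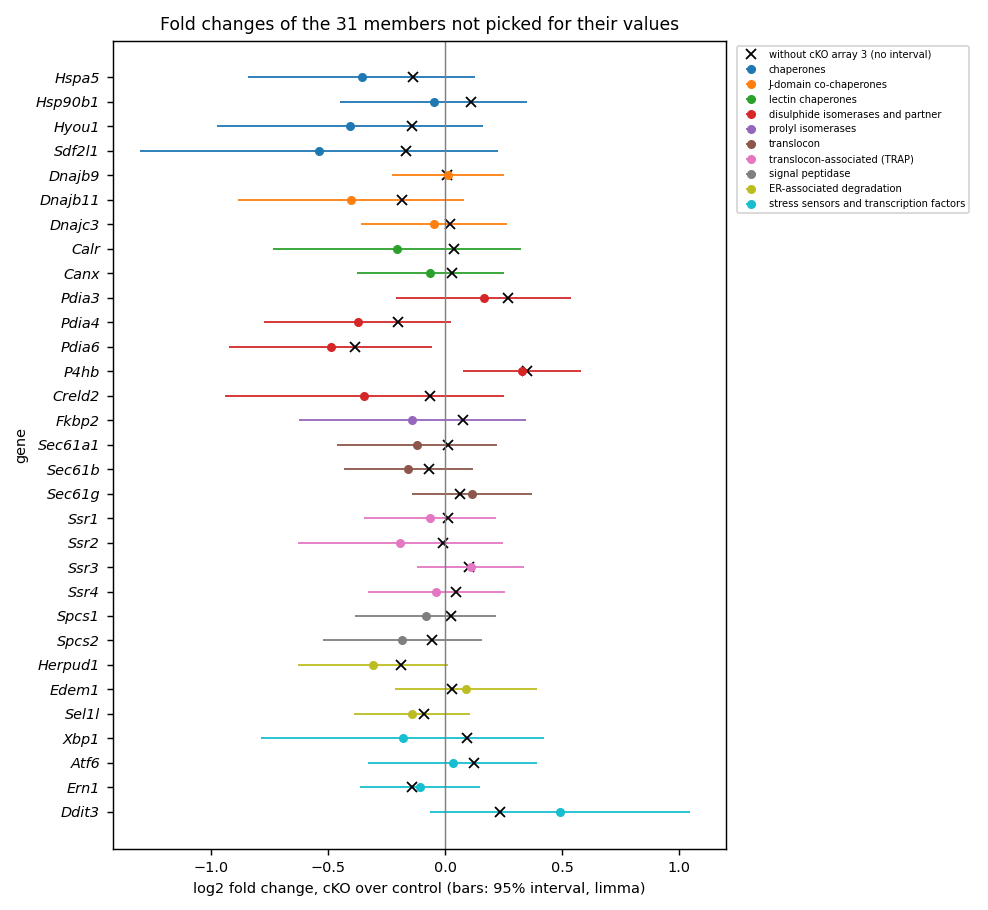
Log2 fold change of cKO over control for the 31 genes chosen by name (points, coloured by role, with limma's 95% interval as bars) and the same value without cKO array 3 (crosses). Points and crosses lie far apart for Sdf2l1, Hyou1, Xbp1 and Ddit3 and close together for P4hb.

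The genes of the entry path stood close to their control levels by their brightest probes. The Sec61 channel (Sec61a1, Sec61b and Sec61g), the translocon-associated TRAP complex (Ssr1 to Ssr4) and the signal peptidase subunits Spcs1 and Spcs2 had log2 fold changes from −0.19 to 0.12 by these probes, with a median of −0.08 and of 0.01 without cKO array 3. Spcs2 had −0.18 by its brightest probe and 0.16 by its other, where all cKO arrays lay above all controls (−0.06 and 0.19 without cKO array 3). A dimmer Sec61a1 probe had −0.26 with all cKO arrays below all controls, and −0.14 without cKO array 3. The levels of Sec61g were 6.55, 6.67 and 6.77 in cKO and 6.55, 6.61 and 6.49 in control cells, which overlapped (log2 fold change 0.12, standard error 0.11, adjusted p = 0.51, and 0.062 without cKO array 3). Those of Ssr3 were 4.10, 4.21 and 4.18 in cKO and 4.02, 4.10 and 4.06 in control cells, which barely separated (log2 fold change 0.11, standard error 0.09, adjusted p = 0.49, and 0.10 without cKO array 3).

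Ssr1, the alpha subunit of TRAP, was read by 5 probes whose values disagreed, and it was singled out after they were seen. All 5 lie on the minus strand of chromosome 13 (build mm9) in the transcript NM_025965. The probe nearest the 5′ end, which begins at base 814 of the transcript (38075288 to 38075347), stood at −0.87, −0.999 and −1.14 in cKO and at −0.01, 0.03 and −0.11 in control cells. The groups lay far apart and cKO array 3 was close to the others. Its signal fell by 0.98 on the log2 scale (standard error 0.11, adjusted p = 0.0495 from limma), and by 0.91 without cKO array 3, where the adjusted p was 0.077.

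The brightest Ssr1 probe begins at base 2369 (38070147 to 38070206) and had a log2 fold change of −0.06, and of 0.011 without cKO array 3. The probes beginning at bases 4441, 4610 and 9044 had log2 fold changes of 0.34, 0.41 and 0.59, and for each of them all cKO arrays lay above all control arrays (adjusted p = 0.19, 0.12 and 0.14). Without cKO array 3 they had 0.33, 0.40 and 0.46. The values thus ran from lower to higher in cKO with distance from the 5′ end of the transcript. The difference between the probes was not tested, and the mean over the 5 probes hides it. Across the alternatives that gave a test, the adjusted p of the probe at base 814 ran from 0.011 to 0.34 and was under 0.05 in 4 of 17, while its log2 fold change stayed between −1.04 and −0.80.

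**Figure D3:**
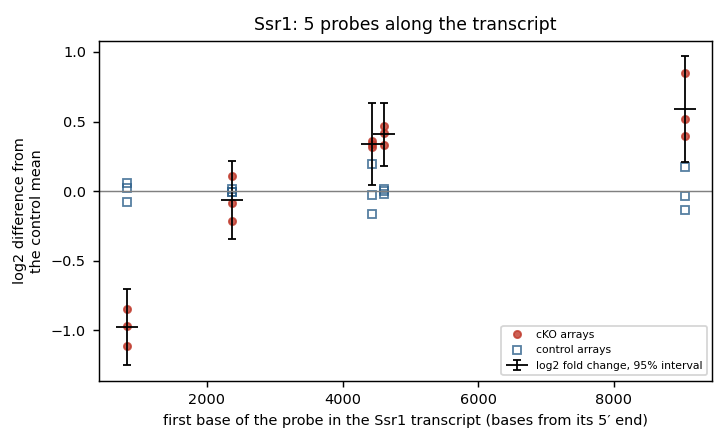
Levels of 5 Ssr1 probes on each array as the log2 difference from the control mean (red circles cKO, open blue squares control), against the first base of the probe in the transcript; black bars are the log2 fold change with its 95% interval. The cKO arrays lie below the controls at base 814, among them at base 2369 and above them at bases 4441, 4610 and 9044.

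Genes of ER-associated degradation, which sends misfolded protein to the proteasome, had small values. Herpud1, which helps assemble the degradation complex, had all cKO arrays beneath the controls (log2 fold change −0.31, standard error 0.13, adjusted p = 0.23, and −0.19 without cKO array 3). Sel1l, the scaffold of that complex, had −0.14 by its brightest probe and 0.15 and −0.21 by its other probes, and −0.092, 0.20 and −0.26 without cKO array 3. Edem1, which recognizes misfolded glycoproteins, stood at 2.61, 2.87 and 2.92 in cKO and at 2.76, 2.77 and 2.60 in control cells, with overlap (log2 fold change 0.09, standard error 0.13, adjusted p = 0.67, and 0.030 without cKO array 3).

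Of the stress sensors, Ern1, which encodes IRE1α, stood at −1.90, −2.07 and −1.87 in cKO and at −1.85, −1.90 and −1.77 in control cells (log2 fold change −0.11, 95% interval −0.36 to 0.15, adjusted p = 0.55, and −0.14 without cKO array 3). Atf6 stood at −0.01, −0.09 and −0.32 in cKO and at −0.15, −0.38 and 0.02 in control cells by its brightest probe (log2 fold change 0.03, 95% interval −0.33 to 0.39, adjusted p = 0.91, and 0.12 without cKO array 3). For both genes the groups overlapped. The dimmer Atf6 probe had −1.21, −1.45 and −1.50 in cKO and −1.10, −1.03 and −0.92 in control cells, without overlap (log2 fold change −0.37, adjusted p = 0.18, and −0.31 without cKO array 3).

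Xbp1, whose mRNA IRE1α splices into that of an active transcription factor, stood at 3.07, 3.18 and 2.31 in cKO and at 3.16, 3.09 and 2.85 in control cells. The cKO arrays 1 and 2 lay among the controls and array 3 below all. The log2 fold change was −0.18 (standard error 0.25, adjusted p = 0.67) and became 0.09 without cKO array 3. The array does not tell spliced from unspliced Xbp1 mRNA.

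Ddit3, which encodes the stress-induced transcription factor CHOP, ran the other way. It stood at 0.43, 0.54 and 1.26 in cKO and at 0.32, 0.24 and 0.19 in control cells, with every cKO array above the controls and array 3 the highest. The log2 fold change was 0.49 (standard error 0.23, adjusted p = 0.25), the largest positive value of the 31 genes, and 0.23 without cKO array 3.

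The promoters of the genes that dipped on cKO array 3 were set beside their levels, since ATF6 and XBP1 act through short ER stress elements. RefSeq windows from 250 bases before to 50 bases after each gene's start (build GRCm38.p6) were at hand for 29 of the 33 genes. The element ERSE (CCAAT, then any 9 bases, then CCACG, on either strand) was found in the windows of 7 of the 29 (Hspa5, Hsp90b1, Calr, Canx, Pdia6, Dnajc3 and Creld2), beside 0.119% of all 32851 windows. ERSE-II (ATTGGNCCACG, either strand) was found in Herpud1 and Dnajb11, beside 0.0365% of all windows. Both elements end in CCACG and no window of the 29 held both. The sites that lie before the start of 8 of these 9 genes are shown, since all 9 genes were lowest on cKO array 3. That of Dnajb11 lies after the start and is not shown. They are written in the direction of the gene, with the fixed bases of the element in capitals and 6 bases on each side.
Hspa5, chr2:34772019-34772049, plus strand: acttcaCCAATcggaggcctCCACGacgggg
Hsp90b1, chr10:86705632-86705662, minus strand: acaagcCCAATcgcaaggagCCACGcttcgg
Hsp90b1, chr10:86705527-86705557, minus strand, element reversed: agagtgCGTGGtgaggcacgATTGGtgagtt
Calr, chr8:84847069-84847099, minus strand, element reversed: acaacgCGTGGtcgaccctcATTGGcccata
Canx, chr11:50325794-50325824, minus strand: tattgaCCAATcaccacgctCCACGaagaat
Pdia6, chr12:17266485-17266515, plus strand: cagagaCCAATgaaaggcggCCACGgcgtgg
Dnajc3, chr14:118937821-118937851, plus strand: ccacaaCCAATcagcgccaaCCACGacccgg
Creld2, chr15:88819514-88819544, plus strand, element reversed: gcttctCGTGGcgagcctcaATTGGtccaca
Herpud1 (ERSE-II), chr8:94386371-94386393, plus strand: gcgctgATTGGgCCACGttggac

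The level on cKO array 3 was the lowest of the 6 for all 9 genes with ERSE or ERSE-II. It was so for 10 of the 18 genes chosen by name whose windows hold neither, beside 35.2% of all tested probes. This split was made after the low levels on that array were seen, and all these levels come from 1 array. Only exact matches within the window were counted, so genes with other forms of the elements would fall among the 18. The median of cKO array 3 minus the control mean was −0.69 over the 9 and −0.21 over the 18, and that of the other cKO arrays was −0.07 and 0.03. Over the 4 genes without a window the median on cKO array 3 was −0.47, and 3 of the 4 were lowest there. Sdf2l1, at −1.28 on that array, and Xbp1, at −0.73, are among the 18. The 9 genes are largely the chaperones themselves, so element and function cannot be told apart here. Of the pathway genes outside the 33, Syvn1, Derl3 and Ero1b hold ERSE and Krtcap2 holds ERSE-II, and on cKO array 3 they stood at −0.48, 0.53, −0.16 and −0.03 from their control means.

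**Figure D4:**
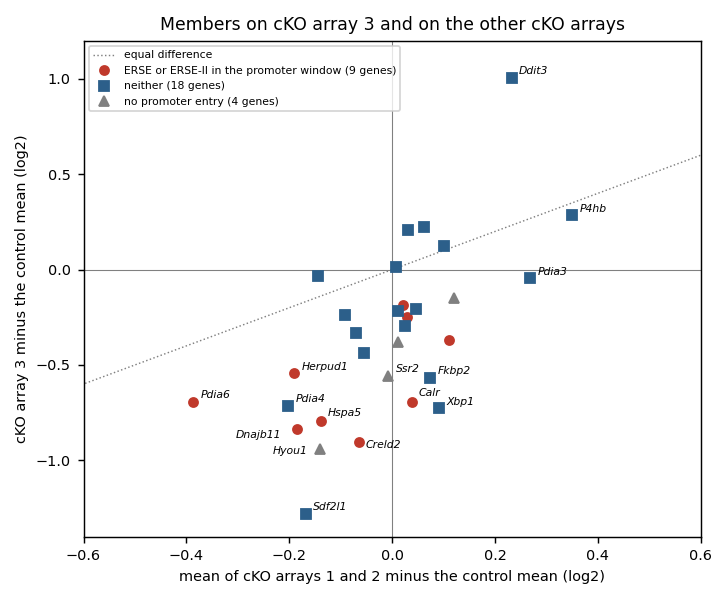
For each of the 31 genes chosen by name, the mean of cKO arrays 1 and 2 minus the control mean (x axis) against cKO array 3 minus the control mean (y axis), both in log2; the dotted line marks equal differences. Red circles (ERSE or ERSE-II in the promoter window) all lie below 0 on the y axis, Sdf2l1 is lowest and Ddit3 highest.

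Fkbp11, a membrane-anchored prolyl isomerase known for high expression in secretory cells, gave different pictures by its 2 probes. Both lie on the minus strand of chromosome 15 (mm9) in the transcript NM_024169. The array annotation does not say which exon they lie in. The first begins at base 434 (98556922 to 98556981), is the brighter one and is printed whole. The second begins at base 666 (98554809 to 98554868) and is printed in part. Both are shown because the same transcript gave different results by them, and capitals are not used, as no part is singled out.
Fkbp11 probe from base 434: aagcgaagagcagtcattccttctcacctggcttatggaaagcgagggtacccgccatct
Fkbp11 probe from base 666, first 45 of 60 bases: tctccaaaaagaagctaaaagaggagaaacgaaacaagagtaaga

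The brighter Fkbp11 probe stood at −2.39, −2.58 and −2.75 in cKO and at −2.92, −2.39 and −1.54 in control cells, with the cKO arrays inside the range of the controls (log2 difference −0.29). Without cKO array 3 the difference was −0.20. Within the first slide the sign turned, to 0.35, and without control array 3 it was 0.08. The dimmer probe, for which Fkbp11 was picked, stood at −4.22, −3.68 and −3.57 in cKO and at −6.05, −5.91 and −6.28 in control cells. It was well above background on all cKO arrays and on 0 control arrays, so only a bound can be given, and with normexp background correction the log2 difference was 0.59. Its mean signal was at least 4.20-fold higher in cKO, with measured means of −3.82 and −6.08. The bound sets the mean of the cKO arrays against the higher, on each control array, of the probe's own level and the lowest level that was well above background there.

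Pou2af1 (chromosome 9, 51048108 to 51048167 in mm9, transcript NM_011136) encodes OCA-B, a coactivator of the octamer-binding factors known from B cells. It stood at −2.22, −1.999 and −2.11 in cKO and at 0.03, −0.35 and 0.50 in control cells. All cKO arrays lay far below all controls, a log2 difference of −2.17, which is the difference that it was picked for. It was −2.17 without cKO array 3 and −2.14 against control array 1 on the same slide. Its promoter window holds the XBP1-bound UPRE core TGACGTGG, which was searched on both strands and occurs in 0.676% of all windows and in 1 of the 29 genes. Among the 71 other pathway genes with a window, 7 hold the core. Of these, Kdelr3 was at least 4.15-fold higher in cKO, with signal near background in control cells. Since it entered the test only through the arrays where it is high, nothing is read from it here. The other genes with the core overlapped between the groups, with log2 fold changes of −0.05 (Txndc5), −0.09 (Txndc11), −0.11 (Ube2j1), −0.11 (Vcp), 0.21 (Sec24d) and 0.08 (Copb1). The Pou2af1 window is given because Xbp1 is among the genes here, although Xbp1 levels overlapped between the groups. An effect of XBP1 on Pou2af1 was not tested.
Pou2af1, chr9:51213623-51213642, plus strand: atgtgaTGACGTGGcccctc

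**Figure D5:**
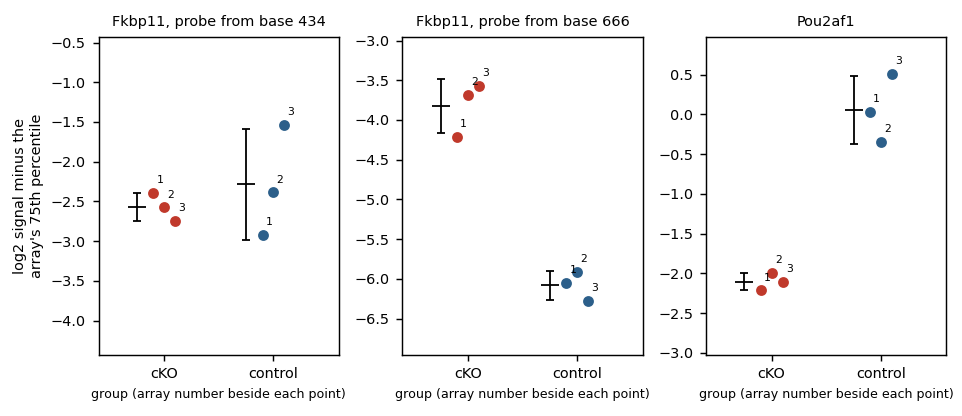
Log2 signal minus the 75th percentile of the array for the probes of Fkbp11 and the probe of Pou2af1 in cKO (red) and control (blue), with array numbers at the points and the mean ± SD of 3 arrays as bars; each panel spans 4 log2 units around its own centre, as levels of different probes are not comparable. The cKO points lie among the controls for the first Fkbp11 probe, above them for the second and below them for Pou2af1.

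Other genes of the same pathways were read to place the 33. Of 87 such genes, 84 were tested with limma and 0 passed the adjusted p of 0.05, beside 0.242% of all tested probes. At an unadjusted p under 0.05, 5 were higher in cKO, beside 11.5% of all tested probes, and 3 lower, beside 11.4%. The median log2 fold change was −0.04, beside −0.04 over all tested probes, and without cKO array 3 it was 0.02, beside −0.03. All 3 cKO arrays lay above all controls for 8, beside 15.9% of all tested probes, and below them for 11, beside 20.7%. These shares are below those of all tested probes. The KDEL receptors return chaperones from the Golgi to the ER. Kdelr3 stood at −4.06, −3.26 and −3.77 in cKO and at −5.91, −5.48 and −6.74 in control cells, and was well above background on the cKO arrays alone. Its signal was at least 4.15-fold higher in cKO, with measured means of −3.70 and −6.04 and an adjusted p of 0.069 from limma. It entered the test only through the arrays where it is high. Nothing is therefore read from that p, or from its place among the 5 higher genes or the 8 with all cKO arrays above. With normexp background correction its log2 difference was 0.58. Kdelr1 (log2 fold change 0.43, standard error 0.10, adjusted p = 0.12, and 0.42 without cKO array 3), named after its values were seen, was also higher on all cKO arrays. Kdelr2 had 0.06, and 0.16 without cKO array 3.

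Ero1a, the oxidase that recharges disulphide isomerases, stood at 3.62, 4.00 and 3.94 in cKO and at 3.13, 3.22 and 2.41 in control cells, without overlap (log2 fold change 0.94, standard error 0.24, adjusted p = 0.14, and 0.89 without cKO array 3). Its other probe had 0.96, and 0.90 without cKO array 3. Creb3l2, a membrane-bound transcription factor of the secretory pathway, stood at 1.28, 1.72 and 2.37 in cKO and at 1.08, 0.89 and 1.23 in control cells (log2 fold change 0.72, standard error 0.28, adjusted p = 0.21, and 0.44 without cKO array 3). Chac1, a stress-induced enzyme that degrades glutathione, stood at 0.41, 1.26 and 0.17 in cKO and at 0.55, 0.34 and −0.94 in control cells, with overlap (log2 fold change 0.63, standard error 0.47, adjusted p = 0.42). Its value was 0.86 without cKO array 3, 0.31 without cKO array 2, 0.17 without control array 3 and 0.068 against control array 1 on the same slide.

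The lowest values among the pathway genes were those of Sec22b, a SNARE of transport between ER and Golgi, at 3.49, 3.11 and 3.26 in cKO and 3.69, 3.62 and 3.66 in control cells (log2 fold change −0.37, standard error 0.13, adjusted p = 0.18, and −0.36 without cKO array 3). Its groups did not overlap and cKO array 2 was the lowest. Ppp1r15b, a regulatory subunit of the phosphatase that ends the PERK signal, stood at 1.66, 1.598 and 1.04 in cKO and at 1.74, 1.82 and 1.82 in control cells (log2 fold change −0.36, adjusted p = 0.27, and −0.17 without cKO array 3). Sec11c, a catalytic subunit of the signal peptidase, stood at 1.98, 2.04 and 1.57 in cKO and at 2.06, 2.28 and 2.28 in control cells (log2 fold change −0.34, adjusted p = 0.25, and −0.20 without cKO array 3). Manf, a stress-induced protein that binds BiP, stood at 3.49, 3.57 and 2.81 in cKO and at 3.65, 3.63 and 3.56 in control cells (log2 fold change −0.32, adjusted p = 0.38, and −0.085 without cKO array 3). These last 3 genes were lowest on cKO array 3, and for Manf the groups overlapped. The stress gene Ppp1r15a, an effector of the PERK branch, was highest on cKO array 3, at −0.04 beside −1.31 to −0.94 on the other arrays, as Ddit3 was. It was named after its values were seen (log2 fold change 0.46, and 0.13 without cKO array 3). Eif2ak3, which encodes PERK, was also highest on cKO array 3, while Atf4, Trib3 and Chac1 were highest on cKO array 2. Of the 12 tested pathway genes of stress signalling, 5 were highest on cKO array 3, beside 28.1% of all tested probes, and 3 lowest, beside 35.2%.

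Markers of the labelled cells and of other cell types were read beside these genes. All 8 T-cell markers and all 8 Treg markers were well above background on 6 arrays. The summed Treg marker signal, most of it from Tnfrsf18, was 198, 214 and 218 in cKO and 201, 190 and 158 in control cells. Such sums are in units of the array's 75th percentile. Foxp3 stood at 3.16, 3.12 and 2.45 in cKO and 3.42, 3.42 and 3.76 in control cells (log2 fold change −0.62, adjusted p = 0.19 from limma, and −0.39 without cKO array 3). Ctla4, named after its values were seen, stood at 0.57, 0.95 and 1.16 in cKO and 0.24, 0.11 and −0.47 in control cells. Its log2 fold change was 0.94 (adjusted p = 0.14 from limma) and 0.80 without cKO array 3. Of 10 B-cell markers, the defining Pax5, Ebf1, Cd22 and Fcrla were well above background on 0 arrays and Cd79b and Blnk on 6. Their summed signal, most of it from Cd79b, was 0.67, 0.87 and 1.56 in cKO and 0.79, 0.80 and 0.57 in control cells, and the part of B cells in the Pou2af1 levels was not tested.

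Of 8 plasma-cell markers, Jchain and Tnfrsf17 were well above background on 0 arrays. The summed signal, most of it from Irf4, was 12.1, 12.9 and 8.64 in cKO and 8.75, 8.22 and 7.77 in control cells. Prdm1 and Eaf2 of this list, named after their values were seen, lay higher on all cKO than on all control arrays, with log2 fold changes of 1.73 and 0.69 (adjusted p = 0.12 and 0.066). The summed signal of 8 myeloid markers was 0.30 to 0.36 in cKO and 0.26 to 0.43 in control cells. Between the genotypes 4 of the summed signals did not overlap. Of all tested probes, 15.9% lay higher on all cKO than on all control arrays and 20.7% lay lower. The sums were 312 to 371 in cKO and 298 to 308 in control cells for the T-cell markers. The epithelial markers had 1.296 to 1.95 and 0.81 to 0.90, and the erythroid markers 0.48 to 1.05 and 0.19 to 0.38. The CD8 T-cell markers Cd8a and Cd8b1 had 3.87 to 4.34 and 4.42 to 5.61, while each gene alone overlapped between the groups. Cd3d gave the largest part of the T-cell sum and lay higher on all cKO arrays (log2 fold change 0.38, and 0.26 without cKO array 3). Cd3e lay lower on all cKO arrays (−0.28, and −0.27 without cKO array 3). The largest part of the epithelial sum came from Cdh1, and Krt8 was well above background on 0 arrays. The erythroid sum in cKO cells came mostly from Hbb-b1. Hba-a1, well above background on 2 arrays only, lay lower on all cKO than on all control arrays, with means of −5.61 and −3.73. The summed T-cell, Treg, B-cell, epithelial and erythroid signals were highest on cKO array 3, and Foxp3 and Il2ra were lowest there. The part of these in the levels of the ER genes, between the genotypes and on that array, was not tested.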

How the data were processed

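RNA of iTreg cultures from 3 cKO and 3 control mice was read on one-colour Agilent arrays (45018 spots, 41174 probes of which are not controls). The deposited intensity values are spot signals that the authors extracted with Agilent Feature Extraction (9.1 per the submitters' processing notes, 10.7.3.1 per the file headers), background-subtracted and without normalization across arrays. The authors also deposited log2 values per probe, with a median of 6.15 on every array, which served as an alternative. The paper's methods name no array normalization and, in general, Student's t-test.

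Outlier spots were dropped (123 to 140 per array), spots of a probe averaged, and log2 signal taken minus the 75th percentile of the array (987 to 1148). Probes that stood well above background on 3 or more arrays, 22281 in all, were fitted with limma 3.58.1 (R 4.3.3; statmod 1.5.0), with Benjamini-Hochberg adjustment over all of them and a call at 0.05; the fit was tested on simulated data. No sample was imputed; 19 probes lacked a value on some array. Tables and plots used Python 3.11.15, pandas 2.3.3, numpy 2.4.6 and matplotlib 3.10.9.

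The genes, the pathway and marker lists and the tests were chosen with earlier results of these data known. Named with their values on each array are Fkbp11, Pou2af1, Xbp1, Atf6, Ern1, Ddit3, Hspa5, Fkbp2, the 5 other genes with the largest and the 5 with the smallest fold change, and among pathway genes the 4 largest and 4 smallest. Positions are the mm9 ones of the array annotation, promoter sequences those of RefSeq on GRCm38.p6. Alternatives were other background corrections and normalizations, filters, eBayes settings, array weights, the methods' t-test, the slide or the replicate number in the model, the mean over a gene's probes, and each array left out. Samples sharing a replicate number did not deviate together (r = −0.14, 0.01 and −0.19), so the numbers were not treated as pairs.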

Additional observations from a re-analysis of the deposited data

How the results depend on the processing

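No alternative gave an adjusted p under 0.05 for any of the 31 genes, and array weights gave one for 4 of the 84 pathway genes (Kdelr1, Ero1b, Sec22b and Kdelr3, the last of which passed the filter only through its cKO arrays). At an unadjusted p under 0.05 the main counts were 1 higher and 1 lower of the 31, and 5 higher and 3 lower pathway genes. The lower count of the 31 was 2 with quantile normalization (with or without normexp), the deposited log2 table and robust eBayes, 4 with array weights and 0 with the methods' t-test or the mean over a gene's probes; the higher count was 2 with the median as scaling point or array weights. Without the filter on dim probes both counts were 0, beside 3 higher and 0 lower pathway genes, and array weights gave 9 higher and 6 lower pathway genes. The mean over a gene's probes gave 0 lower pathway genes. With the slide as a term both counts of the 31 were 0, beside 1 higher and 0 lower pathway genes. With the replicate number as a block both were 0, beside 4 higher and 1 lower pathway genes; the numbers do not pair the samples. Leaving out each array gave 0 to 2 higher and 0 to 3 lower of the 31, 3 to 7 higher and 0 to 4 lower pathway genes, and a median fold change of the 31 between −0.17 and 0.01 (0.01 without cKO array 3). Of 26 named genes 22 kept their sign under every alternative. Fkbp11's brightest probe turned to 0.35 with the slide as a term or within the first slide and to 0.98 as the mean over its probes, and leaving out each array gave −0.61 to 0.082, the latter without control array 3. Xbp1 turned to 0.012 and Fkbp2 to 0.023 with array weights. Leaving out each array gave −0.34 to 0.091 for Xbp1 and −0.28 to 0.074 for Fkbp2, both highest without cKO array 3. Atf6 turned to −0.17 as the mean over its probes, and leaving out each array gave −0.074 (without control array 2) to 0.13, with −0.033 without cKO array 1. With normexp, which adds an offset of 50 to each signal, the differences of the dimmer Fkbp11 probe and of Kdelr3 were 0.59 and 0.58, and Pou2af1 moved from −2.17 to −1.66. Chac1 ran from 0.068 with the slide as a term to 0.92 without control array 1. The causes of the other shifts were not tested. Signal near background limits the dimmer Fkbp11 probe and Kdelr3.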
